A study of Mus musculus with 28 samples.

Results

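The genes described here encode the protein folding machinery of the endoplasmic reticulum (ER) and the unfolded protein response, the signalling system that adjusts this machinery to the load of new secretory protein. They were 36 genes, picked by symbol from the 54354 genes of a deposited count table, and 35 of them were among the 12495 genes that passed a filter on low counts; Derl3 did not. The 28 libraries came from the small intestine of mice of the genotype Lgr5-GFP, a reporter of the stem cell receptor gene Lgr5. There were 4 groups of 7 libraries: Lgr5-high cells on control diet, Lgr5-high cells on cystine diet, Lgr5-low cells on control diet and Lgr5-low cells on cystine diet. Every group therefore carried the same reporter, and the groups differed in Lgr5 level and in diet; cystine is the oxidised dimer of cysteine. The series addresses dietary cysteine and intestinal stemness. The sources used here give neither the ages of the mice nor whether each library was a separate animal, so that p-values measure the spread between libraries. Organoids are named as the RNA source in the extraction protocol while the design text names isolated cell populations, and which of these was sequenced is not settled by the labels.

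Secretory proteins enter the ER through the Sec61 channel, fold with the help of chaperones such as BiP, and gain disulfide bonds from protein disulfide isomerases. Proteins that fail to fold are pulled back out and degraded (ER-associated degradation). When unfolded protein builds up, the sensors IRE1, PERK and ATF6 in the ER membrane raise the expression of chaperones, partly through the transcription factor XBP1, whose mRNA IRE1 splices. In the intestine this system is known above all from secretory cells: goblet cells, which make mucus, and Paneth cells, which make antimicrobial peptides.

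ATF6 and XBP1 are known to act through short promoter motifs, and the stretches below show which genes of the set carry the ER stress response element (ERSE, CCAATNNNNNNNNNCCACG) or its compact form ERSE-II (ATTGGNCCACG) before their start. RefSeq promoter windows (GRCm38.p6, 250 bases before to 50 after the start) were matched for 30 of the 36 genes and searched on both strands. The ERSE letters were in the windows of 10 of the 30 genes (33.3%), against 37 of all 27025 genes with a window (0.137%). All 10 are printed, with ERSE-II of Herpud1, 5′ to 3′ on the strand of the gene with 10 bases on either side; capitals mark the fixed letters of the motif, which read CGTGG and then ATTGG where the match lies on the opposite strand.
Hspa5 (chr2:34772015-34772053, plus strand): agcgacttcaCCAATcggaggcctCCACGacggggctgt
Hsp90b1 (chr10:86705523-86705666, minus strand): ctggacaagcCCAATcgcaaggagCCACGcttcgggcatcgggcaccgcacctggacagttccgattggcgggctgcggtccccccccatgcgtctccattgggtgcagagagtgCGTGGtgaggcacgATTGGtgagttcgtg
Dnajc3 (chr14:118937817-118937855, plus strand): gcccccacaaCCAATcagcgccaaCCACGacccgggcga
Calr (chr8:84847065-84847103, minus strand): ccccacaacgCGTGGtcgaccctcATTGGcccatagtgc
Canx (chr11:50325790-50325828, minus strand): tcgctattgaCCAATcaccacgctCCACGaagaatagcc
Creld2 (chr15:88819510-88819548, plus strand): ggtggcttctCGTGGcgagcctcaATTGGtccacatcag
Pdia6 (chr12:17266481-17266519, plus strand): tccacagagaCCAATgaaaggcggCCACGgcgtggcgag
Ero1b (chr13:12565672-12565710, plus strand): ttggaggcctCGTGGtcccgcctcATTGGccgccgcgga
Syvn1 (chr19:6046522-6046560, plus strand): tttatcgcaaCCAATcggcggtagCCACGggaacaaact
Derl3 (chr10:75893232-75893270, plus strand): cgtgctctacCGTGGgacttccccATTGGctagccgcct
Herpud1 (chr8:94386367-94386397, plus strand): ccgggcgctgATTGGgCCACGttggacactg

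Hsp90b1 held the ERSE letters 2 times, once on each strand, and the other 9 genes once each. ERSE-II was in 2 of the 30 genes (6.67%, against 0.0444% of all genes): Herpud1, and Dnajb11, where it lies after the start. The core of the unfolded protein response element, TGACGTGG, was in Txndc5 and Txndc11 (6.67%, against 0.714% of all genes). These are letter matches in a fixed window, not measured binding sites.

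Levels are given in CPM, the count of a gene divided by the scaled total of its library in mega (M) counts, with the TMM correction for library composition. The libraries held between 2.75 M and 21.5 M counts, and 3 counts corresponded to 0.124 to 1.11 CPM, which is the counting limit for a gene with no reads. The isolation was visible in the markers: the summed level of 6 stem cell markers was 3020 to 7070 CPM in the Lgr5-high libraries and 617 to 2390 CPM in the Lgr5-low libraries, and Lgr5 itself was 2.48 ± 0.30 higher on the log2 scale (SE, edgeR adjusted p = 8.19e-07). Libraries under 5 M counts numbered 1 and 3 in Lgr5-high control and cystine, and 2 and 1 in Lgr5-low control and cystine.

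The ER genes were lower in Lgr5-high than in Lgr5-low cells. With the difference between populations averaged over the diets, 20 of the 35 tested genes (57.1%) were lower in Lgr5-high cells and 0 were higher, where 5.05% of all tested genes were lower and 3.75% higher (edgeR quasi-likelihood test, adjusted p under 0.05). The median log2 fold change of the 35 genes was -0.63, beside -0.02 over all tested genes, and 34 of the 35 values were below 0. By role, 9 of 11 chaperones were lower, 5 of 8 disulfide isomerases and oxidases, 3 of 4 translocation genes, 2 of 5 sensors and factors, and 1 of 7 tested degradation genes. The summed level of all 36 genes was 2340 ± 290 CPM (SD, n = 7) in Lgr5-high control and 2290 ± 263 CPM in Lgr5-high cystine libraries, against 3220 ± 426 CPM in Lgr5-low control and 3380 ± 313 CPM in Lgr5-low cystine libraries. The highest Lgr5-high sum, 2760 CPM, overlapped the lowest Lgr5-low sums on control diet (2700 CPM) but lay below every Lgr5-low sum on cystine diet (2890 CPM and more). Since these were bulk libraries, a smaller share of a cell type that expresses these genes and less of their RNA per cell cannot be told apart. The share of counts from mitochondrial genes differed too, at 15.3 to 23.0% (median 17.7%) and 15.9 to 25.5% (median 20.5%) in Lgr5-high control and cystine libraries against 14.8 to 19.2% (median 16.9%) and 14.2 to 19.2% (median 14.9%) in the Lgr5-low groups; its part in the result was not tested.

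**Figure D1:**
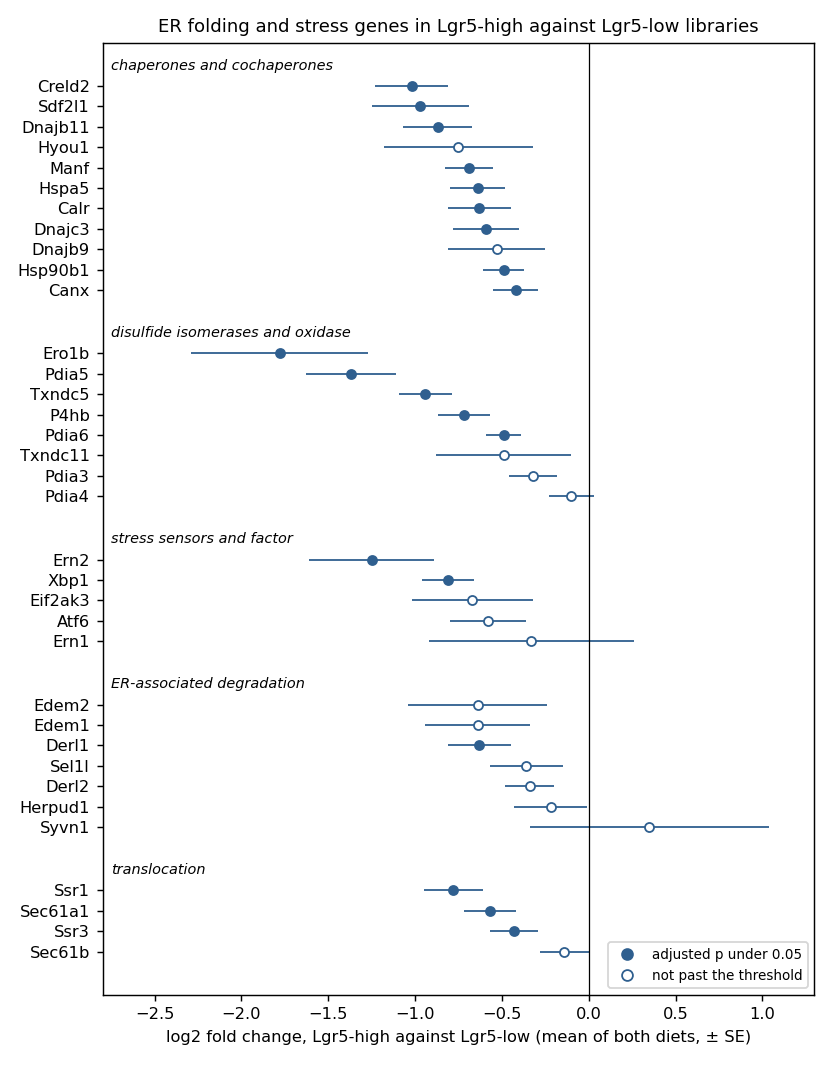
Log2 fold change (± SE) of the 35 tested ER genes, Lgr5-high against Lgr5-low averaged over the diets, ordered within 5 role groups; filled points passed the threshold. Values below 0 are lower in Lgr5-high cells: 34 of 35 points lie there, from -1.78 for Ero1b to -0.10 for Pdia4, and Syvn1 alone lies above 0.

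Taken by diet within the same fit of all 28 libraries, fewer genes passed. On control diet 1 of 35 was lower, Manf, and 0 were higher, with 1.02% of all tested genes lower and 0.784% higher; 31 of 35 values were negative, 20 genes had an unadjusted p under 0.05, and the median was -0.56 (-0.01 over all genes). On cystine diet 7 of 35 (20%) were lower and 0 higher, with 1.54% of all tested genes lower and 1.1% higher; all 35 values were negative, with a median of -0.59 (-0.04 over all genes). The 7 genes were Txndc5, Pdia6, P4hb, Pdia5, Xbp1, Ssr1 and Creld2. The averaged comparison uses these same libraries and is no independent repeat. On control diet DESeq2 counted 6 and limma-voom, run with library quality weights, 16 genes of the set lower. Of all 12495 tested genes 225 passed in either direction by edgeR, 410 by DESeq2 and 781 by limma-voom. The count of 1 by edgeR ran from 0 to 11 when a single library was left out. Without Lgr5-low control replicate 3 it was 11, and without Lgr5-low control replicate 1 or Lgr5-high control replicate 5 it was 0.

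Among the sensors, Ern2, which encodes the IRE1 form known from mucosal epithelia, was the member that passed by edgeR. Its level per kilobase of exon in Lgr5-low control libraries was 3.58 CPM per kb, against 0.272 for Ern1, the ubiquitous IRE1, 1.24 for Eif2ak3 (PERK), 1.78 for Atf6 and 11.9 for the factor Xbp1. Ern2 ranged from 0.301 to 10.3 CPM (median 5.19) in Lgr5-high control and from 1.06 to 8.62 CPM (median 5.59) in Lgr5-high cystine libraries. The Lgr5-low libraries spread wider, from 1.21 to 20.5 CPM (median 8.89) on control and 6.72 to 24.6 CPM (median 13.5) on cystine diet. On control diet 1 of 7 and on cystine diet 4 of 7 Lgr5-high libraries were below every Lgr5-low library, and the others overlapped. The averaged difference was -1.25 ± 0.36 (adjusted p = 0.0209).

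Xbp1 (chromosome 11, 5520659 to 5525893, plus strand) encodes the transcription factor made from the IRE1-spliced mRNA; the table counts the gene and does not separate spliced from unspliced mRNA. It was at 14.1 to 29.6 CPM (median 22.0) in Lgr5-high control and 17.2 to 31.4 CPM (median 23.9) in Lgr5-high cystine libraries. In Lgr5-low libraries it was at 19.7 to 64.0 CPM (median 38.6) on control and 33.5 to 55.8 CPM (median 45.4) on cystine diet. All 7 Lgr5-high cystine libraries lay below all 7 Lgr5-low cystine libraries; on control diet 2 of 7 did so. The differences were -0.77 ± 0.21 on control diet (adjusted p = 0.0504), -0.84 ± 0.22 on cystine diet (adjusted p = 0.0241) and -0.81 ± 0.15 averaged (adjusted p = 0.000446). The cystine diet call was lost without Lgr5-low cystine replicate 7 or Lgr5-high cystine replicate 7 (adjusted p up to 0.0691).

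The other sensors did not pass by edgeR. Atf6, whose cleaved form is itself a transcription factor, had 4.05 to 16.6 CPM (median 11) in Lgr5-high control, 7.23 to 13.3 CPM (median 11) in Lgr5-high cystine, 9.28 to 25.9 CPM (median 17.0) in Lgr5-low control and 6.03 to 26.2 CPM (median 14.9) in Lgr5-low cystine libraries. These ranges overlapped on both diets, and its averaged difference of -0.58 ± 0.22 missed the threshold (adjusted p = 0.101), while limma-voom called it lower (limma adjusted p = 0.0233). Eif2ak3, the kinase that slows translation, had -0.67 ± 0.35 (adjusted p = 0.246). Ern1 had -0.33 ± 0.59 (adjusted p = 0.813), was at 0 counts in 2 libraries, and reached at most 5.63 CPM.

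Hspa5 (chromosome 2, 34771970 to 34777547, plus strand) encodes BiP, the main ER chaperone of the Hsp70 family and the usual readout of ER load. It ranged from 152 to 299 CPM (median 179) in Lgr5-high control and from 137 to 327 CPM (median 284) in Lgr5-high cystine libraries. Lgr5-low libraries had 158 to 564 CPM (median 282) on control and 255 to 474 CPM (median 435) on cystine diet. The groups overlapped on both diets, and 1 of 7 Lgr5-high libraries on control and 2 of 7 on cystine diet were below every Lgr5-low library. The averaged difference was -0.64 ± 0.16 (adjusted p = 0.00856), with -0.63 on control and -0.66 on cystine diet, neither past the threshold alone (adjusted p = 0.174 and 0.127).

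Hsp90b1, the ER form of Hsp90 and the gene with 2 ERSE matches, had 247 to 362 CPM (median 279) in Lgr5-high control and 202 to 354 CPM (median 316) in Lgr5-high cystine libraries. Lgr5-low libraries had 259 to 561 CPM (median 460) on control and 279 to 465 CPM (median 446) on cystine diet. All Lgr5-high libraries were below the Lgr5-low median on either diet, with an averaged difference of -0.49 ± 0.12 (adjusted p = 0.00819). The lectin chaperones, which hold glycoproteins as they fold, moved the same way. Calr ran from 48.7 to 93.7 CPM (median 82.5) and from 35.6 to 123 CPM (median 104) in the Lgr5-high control and cystine groups, and from 53.5 to 196 CPM (median 147) and from 72.7 to 155 CPM (median 131) in the Lgr5-low groups. Its groups overlapped on each diet although every Lgr5-high library was below the Lgr5-low median, and the averaged difference was -0.63 ± 0.18 (adjusted p = 0.0197). Canx ran from 114 to 171 CPM (median 134) and from 117 to 235 CPM (median 158) in the Lgr5-high groups, and from 136 to 271 CPM (median 235) and from 162 to 244 CPM (median 199) in the Lgr5-low groups. On each diet 4 of 7 Lgr5-high libraries were below all Lgr5-low ones; the averaged difference was -0.42 ± 0.13 (adjusted p = 0.0283), and it lost the threshold without Lgr5-low control replicate 6 (adjusted p = 0.0547).

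Manf, an ER protein that binds BiP, and Creld2, an ER protein known to be induced by stress, were the chaperone-group genes of lowest p. Manf ranged from 65.6 to 118 CPM (median 75.1) in Lgr5-high control and from 96.9 to 145 CPM (median 134) in Lgr5-high cystine libraries. In the Lgr5-low libraries it ranged from 112 to 230 CPM (median 138) on control and from 82.7 to 257 CPM (median 180) on cystine diet. On control diet 6 of 7 Lgr5-high libraries were below every Lgr5-low library; on cystine diet none was, because 1 Lgr5-low library was at 82.7 CPM. Manf was the gene past the threshold on control diet, at -0.81 ± 0.20 (adjusted p = 0.0223), and was at -0.56 ± 0.20 on cystine diet (adjusted p = 0.128) and -0.69 ± 0.14 averaged (adjusted p = 0.00107). The control diet call was lost without Lgr5-low control replicate 1, which had the highest Manf level of its group, or without Lgr5-high control replicate 5 (adjusted p up to 0.0842).

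Creld2 had 11.9 to 29.4 CPM (median 18.6) in Lgr5-high control and 9.97 to 25.4 CPM (median 19.3) in Lgr5-high cystine libraries. It had 12.2 to 62.7 CPM (median 40.9) in Lgr5-low control and 20.7 to 49.5 CPM (median 35.5) in Lgr5-low cystine libraries. On cystine diet 6 of 7 Lgr5-high libraries were below every Lgr5-low library, and on control diet 1 was, since 1 Lgr5-low library was at 12.2 CPM. Differences were -1.05 ± 0.29 on cystine diet (adjusted p = 0.0417) and -1.02 ± 0.21 averaged (adjusted p = 0.000902). The cystine diet call was lost in 8 of 28 fits that each left out 1 library (adjusted p up to 0.108), with relative log expression size factors and without the low-count filter.

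The J-domain proteins that hand clients to BiP were lower too. Dnajb11 had 20.7 to 48.7 CPM (median 29.1) and 8.38 to 47.5 CPM (median 37.6) in the Lgr5-high control and cystine groups, against 29.7 to 88.0 CPM (median 62.0) and 19.8 to 82.2 CPM (median 59.8) in the Lgr5-low groups. All Lgr5-high libraries were below the Lgr5-low median, although the ranges overlapped, with an averaged difference of -0.87 ± 0.20 (adjusted p = 0.00375). Sdf2l1, a partner of Dnajb11 in its complex, had 3.08 to 14.1 CPM (median 6.34) and 3.84 to 18.7 CPM (median 11.2) in the Lgr5-high groups, against 10 to 25.7 CPM (median 20.2) and 2.30 to 28.7 CPM (median 16.8) in the Lgr5-low groups. On control diet 5 of 7 Lgr5-high libraries were below every Lgr5-low library and on cystine diet none was; the averaged difference was -0.97 ± 0.28 (adjusted p = 0.0205). Dnajc3 had 15.7 to 41.6 CPM (median 33.8) and 25.8 to 53.1 CPM (median 30.1) in the Lgr5-high groups, against 20.0 to 81.2 CPM (median 55.6) and 18.9 to 57.8 CPM (median 51.6) in the Lgr5-low groups. Its groups overlapped widely on cystine diet; the averaged difference of -0.59 ± 0.19 was close to the threshold (adjusted p = 0.0444) and held in 13 of 28 fits that each left out 1 library. Dnajb9 and Hyou1, the genes of the chaperone group that did not pass, were low: Hyou1 reached at most 7.09 CPM and had -0.75 ± 0.43, and Dnajb9 had -0.53 ± 0.28.

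**Figure D2:**
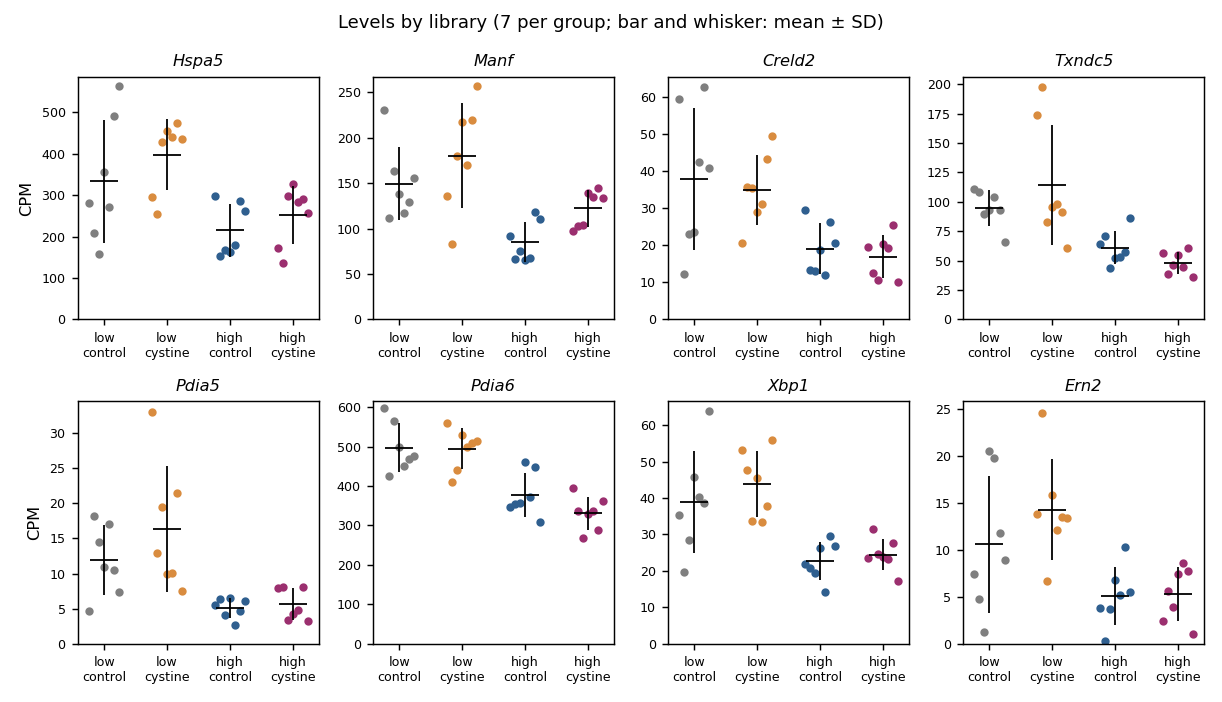
CPM of 8 ER genes in each library (1 point per library, 7 per group; bar and whisker, mean ± SD; linear axes from 0). In the cystine groups the Lgr5-high points of Txndc5, Pdia6 and Xbp1 all lie below the Lgr5-low points, while Hspa5, Manf, Creld2, Pdia5 and Ern2 overlap.

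The disulfide isomerases held the largest single differences. Txndc5 (chromosome 13, 38500079 to 38528824, minus strand), which passes oxidising equivalents to folding proteins, had the lowest p of the set. It was at 44.1 to 86.6 CPM (median 57.1) in Lgr5-high control and 35.9 to 60.8 CPM (median 46.3) in Lgr5-high cystine libraries. In Lgr5-low libraries it was at 65.8 to 111 CPM (median 93.4) on control and 61.1 to 198 CPM (median 96.0) on cystine diet. On cystine diet the groups did not overlap, with the highest Lgr5-high library at 60.8 CPM and the lowest Lgr5-low one at 61.1 CPM. Differences were -0.64 ± 0.20 on control diet (adjusted p = 0.105), -1.24 ± 0.21 on cystine diet (adjusted p = 0.000722) and -0.94 ± 0.15 averaged (adjusted p = 3.39e-05).

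Pdia6 was the most abundant of the set per kilobase in Lgr5-low control libraries at 133 CPM per kb, ahead of Pdia4 at 112 and Hsp90b1 at 102. It had 309 to 461 CPM (median 358) and 268 to 394 CPM (median 336) in the Lgr5-high control and cystine groups, against 426 to 598 CPM (median 475) and 410 to 561 CPM (median 508) in the Lgr5-low groups. All 7 Lgr5-high libraries lay below all 7 Lgr5-low libraries on cystine diet and 5 of 7 on control diet, and the averaged difference was -0.49 ± 0.10 (adjusted p = 0.000751; cystine diet -0.58 ± 0.14, adjusted p = 0.0134). P4hb, the archetypal disulfide isomerase, had 109 to 188 CPM (median 145) and 77.7 to 186 CPM (median 123) in the Lgr5-high groups, against 117 to 352 CPM (median 219) and 180 to 307 CPM (median 217) in the Lgr5-low groups. All but 1 of the Lgr5-high cystine libraries were below every Lgr5-low cystine library; the difference was -0.90 ± 0.21 on cystine diet (adjusted p = 0.0143) and -0.72 ± 0.15 averaged (adjusted p = 0.00147).

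Pdia5 and Ero1b were scarce and had the largest differences of the set. Pdia5 had 2.73 to 6.50 CPM (median 5.57) and 3.18 to 8.11 CPM (median 4.86) in the Lgr5-high control and cystine groups, against 4.72 to 18.2 CPM (median 10.9) and 7.48 to 33.0 CPM (median 12.9) in the Lgr5-low groups. Every Lgr5-high library was below the Lgr5-low median of its diet, with differences of -1.52 ± 0.37 on cystine diet (adjusted p = 0.0159) and -1.37 ± 0.26 averaged (adjusted p = 0.000426). Ero1b, the oxidase that recharges disulfide isomerases, had 0 to 4.39 CPM (median 0.806) and 0.212 to 7.37 CPM (median 2.35) in the Lgr5-high groups, against 0.643 to 12.8 CPM (median 5.04) and 4.05 to 15.8 CPM (median 7.71) in the Lgr5-low groups. It had 0 counts in 2 libraries, 6 of 7 Lgr5-high cystine libraries lay below every Lgr5-low cystine library, and the averaged difference was -1.78 ± 0.51 (adjusted p = 0.0205). Pdia3, Pdia4 and Txndc11 did not pass. Pdia4 had -0.10 ± 0.13 averaged over diets, and its Lgr5-high and Lgr5-low means on control diet were 280 ± 41.4 and 269 ± 98.2 CPM (SD, n = 7).

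Of the degradation genes, Derl1 was the one that passed by edgeR. Derl1, a membrane protein of the retrotranslocation route, had 15.7 to 24.1 CPM (median 18.0) and 13.3 to 38.3 CPM (median 19.2) in the Lgr5-high control and cystine groups. The Lgr5-low groups had 13.0 to 60.5 CPM (median 30.0) and 22.5 to 43.5 CPM (median 26.5). Lgr5-high libraries overlapped the Lgr5-low ones on both diets, 5 of 7 being below all of them on cystine diet and none on control diet; the averaged difference was -0.63 ± 0.18 (adjusted p = 0.0197). Derl2 had 83.5 to 133 CPM (median 102) and 58.0 to 142 CPM (median 99.9) in the Lgr5-high groups, against 79.1 to 199 CPM (median 123) and 96.6 to 162 CPM (median 128) in the Lgr5-low groups. These ranges overlapped, and its -0.34 ± 0.14 did not pass (adjusted p = 0.109), but did in edgeR with an Xist class term (adjusted p = 0.0462). Edem1, which picks misfolded glycoproteins for degradation, had 0.759 to 20.0 CPM (median 9.04) and 1.40 to 15.9 CPM (median 7.04) in the Lgr5-high groups, against 5.4 to 18.1 CPM (median 13.2) and 8.73 to 30.8 CPM (median 16.3) in the Lgr5-low groups. Its values overlapped on both diets, with -0.64 ± 0.30 (adjusted p = 0.2), while limma-voom called it lower (limma adjusted p = 0.0437). Sel1l and Syvn1, the core of the main ubiquitin ligase complex, had -0.36 ± 0.21 and 0.35 ± 0.69, and Syvn1 had 0 counts in 3 libraries. Herpud1 had -0.22 ± 0.21 and Edem2 -0.64 ± 0.40. Derl3 had 0 counts in 21 of 28 libraries and at most 1.02 CPM.

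Among the translocation genes, Ssr1 and Ssr3, subunits of the translocon-associated protein complex, and Sec61a1, the channel itself, were lower. Ssr1 had 29.1 to 56.3 CPM (median 38.1) and 16.4 to 68.8 CPM (median 44.1) in the Lgr5-high control and cystine groups, against 28.9 to 115 CPM (median 70.9) and 71.3 to 94.5 CPM (median 81.6) in the Lgr5-low groups. The cystine groups did not overlap, whereas on control diet no Lgr5-high library was below every Lgr5-low one; the differences were -0.93 ± 0.25 on cystine diet (adjusted p = 0.0305) and -0.78 ± 0.17 averaged (adjusted p = 0.00265). The cystine diet call held in 23 of 28 fits without 1 library (adjusted p up to 0.0667). Sec61a1 had 27.3 to 34.3 CPM (median 33.3) and 12.6 to 46.4 CPM (median 28) in the Lgr5-high groups, against 23.7 to 69.3 CPM (median 49.6) and 30.9 to 50.2 CPM (median 45.9) in the Lgr5-low groups. The control groups overlapped because the Lgr5-low range was wide, and the averaged difference was -0.57 ± 0.15 (adjusted p = 0.0129). Ssr3 had 47.0 to 84.3 CPM (median 70.4) and 54.8 to 99.3 CPM (median 76.9) in the Lgr5-high groups, against 63.4 to 169 CPM (median 86.2) and 70.5 to 125 CPM (median 84.8) in the Lgr5-low groups. These overlapped on both diets; its -0.43 ± 0.14 (adjusted p = 0.0459) held in 14 of 28 fits without 1 library. Sec61b, the small channel subunit, had -0.14 ± 0.14 (adjusted p = 0.630).

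On cystine diet 4 of 35 genes (Txndc5, Pdia6, Xbp1 and Ssr1) had all Lgr5-high libraries below all Lgr5-low libraries, against 0.736% of all tested genes, and 0 did on control diet, against 0.488%. Whether the population difference itself changed with diet is the same test as the difference of diet effects reported further on, and no gene of the set passed it. Of the 9 tested genes with an ERSE match, 8 were lower in the averaged comparison, where 5.05% of all tested genes were lower. Of the 20 tested genes whose window held none, 8 were lower, and of the 6 without a window, 4 were lower. The medians of these groups, in this order, were -0.59, -0.58 and -0.66, and the differences between the groups were not tested. Syvn1 was the tested gene with an ERSE match that did not pass.

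Other genes of the secretory route, taken from lists for the neighbouring steps, followed in part. In this averaged comparison 5.05% of all tested genes were lower and 3.75% higher. Of 15 genes of ER exit and retrieval 6 were lower and 0 higher, among them the cargo receptor Surf4 (-0.96 ± 0.12), the KDEL receptor Kdelr2 (-0.88 ± 0.16) and the vesicle coat genes Sec24d (-1.42 ± 0.29) and Sec13 (-0.64 ± 0.13). Of 24 further folding genes 4 were lower, including Agr2 (-1.38 ± 0.18), a disulfide isomerase needed for mucin, Dnajc10 (-0.73 ± 0.17) and Fkbp11 (-0.75 ± 0.21). In that list 1 gene was higher, Agr3 (2.25 ± 0.19), a relative of Agr2. Of 27 further translocation and glycosylation genes 6 were lower, among them the oligosaccharyltransferase subunits Stt3a (-0.57 ± 0.10), Ddost (-0.55 ± 0.11) and Rpn1 (-0.64 ± 0.13), and 1 was higher, Sec62 (0.48 ± 0.10). Of 16 further stress signalling genes 2 were lower and 0 higher: Creb3l4 (-0.98 ± 0.18), a membrane-bound transcription factor, and Ppp1r15b (-0.66 ± 0.19), a subunit of the phosphatase that reverses PERK signalling. Of 22 further degradation genes 0 passed by edgeR, and 4 had an unadjusted p under 0.05. The list medians, in this order, were -0.41, -0.06, -0.14, -0.40 and -0.27, beside -0.02 over all tested genes.

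Markers of other cell types moved with the same comparison, in which 5.05% of all tested genes were lower and 3.75% higher. All 7 goblet cell markers were lower in Lgr5-high cells, and their summed level was 6570 to 18100 CPM in Lgr5-high control, 10400 to 18100 CPM in Lgr5-high cystine, 23600 to 50500 CPM in Lgr5-low control and 16100 to 46100 CPM in Lgr5-low cystine libraries. Lower, too, were 6 of 7 enteroendocrine, 3 of 7 enterocyte and 2 of 5 tuft cell markers, with enteroendocrine sums of 64.6 to 229 CPM in Lgr5-high and 277 to 888 CPM in Lgr5-low libraries, enterocyte sums of 1900 to 14200 and 5180 to 32900 CPM, and tuft sums of 8.33 to 85.3 and 25.5 to 92.2 CPM. All 6 stem cell markers and 7 of 8 macrophage markers were higher, the macrophage sum being 21.5 to 539 CPM in Lgr5-high cystine and at most 121 CPM in the other groups. By edgeR 0 of 6 Paneth cell markers passed, 0 with an unadjusted p under 0.05, but all 6 averaged values were above 0 (median 0.41). Their sum was 15300 to 151000 CPM across libraries. Its group medians were 78600 and 72300 CPM in Lgr5-high control and cystine, and 42000 and 69100 CPM in Lgr5-low control and cystine. By edgeR 0 of the 4 hepatocyte markers in the table passed, 3 with an unadjusted p under 0.05, with sums of 177 to 807 CPM. Plasma cell markers, of a type rich in ER, summed to at most 24 CPM, with Mzb1, Tnfrsf17, Cd79a and Pou2af1 under 1 CPM in every group, and pancreatic acinar markers summed to at most 22.0 CPM.

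A term for the goblet marker level of each library, the mean log2 CPM of the 7 markers, was added to the fit. With it, 0 of the 35 ER genes and 0 of all 12495 genes passed in the averaged comparison (edgeR), Lgr5 included (2.35 ± 0.59, adjusted p = 0.547). The median of the 35 genes was then -0.05, and Hspa5 stood at 0.35, Txndc5 at -0.60 and Pdia5 at -2.08, each short of the threshold. The goblet sums, another measure of the same 7 markers, overlapped between the populations only from 16100 to 18100 CPM. All 7 markers were also lower in Lgr5-high cells, so the term and the population cannot be told apart in this fit. Within groups the relation of goblet and ER sums varied. In Lgr5-high cystine libraries the ER sum was lowest where the goblet sum was low (replicates 1 and 2, 10400 and 10700 CPM of goblet markers with 2110 and 1840 CPM of ER genes) and highest where it was highest (replicate 4, 18100 with 2610 CPM). In the Lgr5-low control group it was not: replicate 1 had the highest goblet sum of its group (50500 CPM) with 3230 CPM of ER genes, and replicate 7 had 24000 CPM of goblet markers with the highest ER sum (3790 CPM). In Lgr5-low cystine libraries the highest goblet sums (replicates 1 and 2, 46100 and 31400 CPM) came with the lowest ER sums (3100 and 2890 CPM). Lgr5-high control was mixed: the goblet sum was lowest in replicates 3 and 2 (6570 and 6980 CPM, with 2140 and 2030 CPM of ER genes). It was highest in replicate 4 (18100 CPM, with 2270 CPM). The highest ER sums of that group were in replicates 6 and 1 (2760 and 2680 CPM, with 15900 and 10200 CPM of goblet markers).

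**Figure D3:**
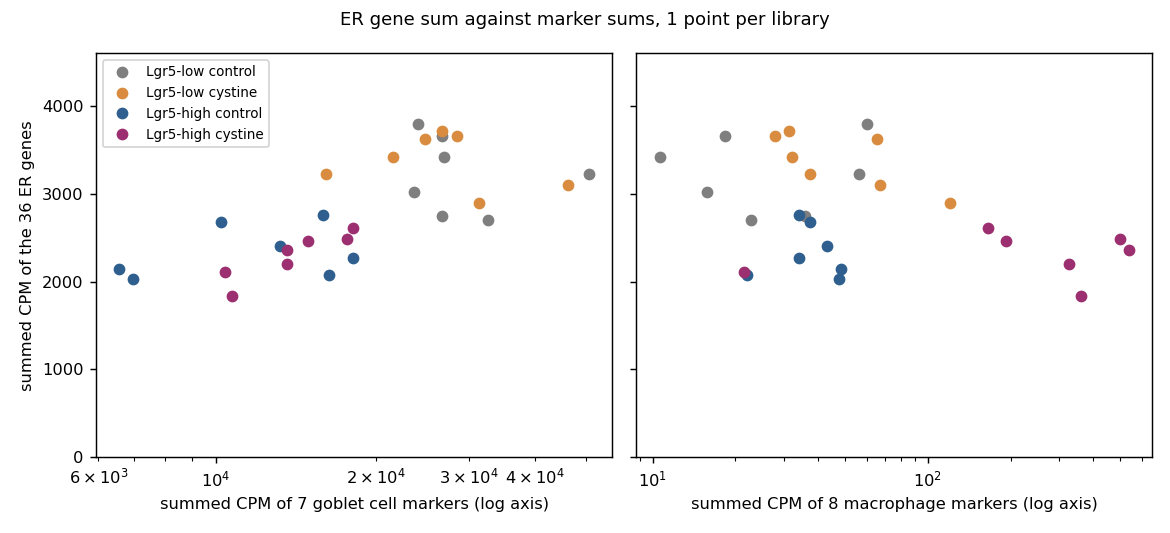
Summed CPM of the 36 ER genes against the summed CPM of 7 goblet cell markers (left) and 8 macrophage markers (right), 1 point per library, marker axes logarithmic. Lgr5-low libraries lie at higher ER and goblet sums (goblet 16100 to 50500 CPM) than Lgr5-high libraries (6570 to 18100 CPM), and 6 of the 7 Lgr5-high cystine libraries lie at higher macrophage sums than the other groups.

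The libraries also fell into classes by Xist, the RNA of the inactive X chromosome, which marks female cells: 4, 5, 4 and 5 libraries of Lgr5-high control, Lgr5-high cystine, Lgr5-low control and Lgr5-low cystine were above 50 CPM. In the averaged comparison 18 ER genes were lower within the class above 50 CPM and 2 within the smaller class below it, with medians of -0.62 and -0.59; of all genes tested in these fits, 11.7% and 2.42% passed in either direction. On control diet the ER gene counts were 11 and 0 (all genes 4.9% and 0.259%), and on cystine diet 12 and 2 (3.22% and 0.902%). The ER sum was 2200 to 2610 CPM above and 1840 to 2110 CPM below in Lgr5-high cystine, 3230 to 3710 and 2890 to 3100 CPM in Lgr5-low cystine, 3020 to 3790 and 2700 to 3230 CPM in Lgr5-low control, and 2080 to 2760 and 2030 to 2680 CPM in Lgr5-high control libraries. Hspa5 differed between the classes on cystine diet, at 258 to 327 CPM above and 137 to 173 CPM below in Lgr5-high libraries, and at 428 to 474 and 255 to 295 CPM in Lgr5-low libraries. In both cystine groups the libraries below 50 CPM of Xist were replicates 1 and 2. The relation of goblet and ER sums given for those replicates therefore cannot be told apart from the class. Paneth cell marker sums moved with the same classes: above and below 50 CPM of Xist they were 78600 to 151000 and 19200 to 21100 CPM in Lgr5-high control, 42000 to 88100 and 15300 to 27200 CPM in Lgr5-low control, 55100 to 147000 and 44600 to 63200 CPM in Lgr5-high cystine, and 30900 to 94500 and 21500 to 46300 CPM in Lgr5-low cystine libraries. The classes were read from the data and are no group of the study, and their part and that of the Paneth markers in the level of the ER genes was not tested.

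None of the 35 ER genes passed the threshold between the diets in either population. In Lgr5-high cells 0 genes of the set passed by edgeR, DESeq2 or limma-voom, and 3 had an unadjusted p under 0.05 by edgeR. Of all 12495 tested genes 0.168% were higher and 0% lower by edgeR, and 535 had an unadjusted p under 0.05; DESeq2 called 0.712% and limma-voom 0.304% in either direction. The median of the 35 was -0.09 (-0.02 over all genes), and values ran from -0.84 to 0.57 with a median SE of 0.27. In Lgr5-low cells 0 genes of the set passed by the same tools and 0 had an unadjusted p under 0.05 by edgeR. Of all tested genes 0% were higher and 0% lower by edgeR, with 4 genes called by DESeq2 and 1 by limma-voom. The median was 0.02 and values ran from -1.01 to 0.59. The data leave room for diet differences: the 95% interval of the diet difference of Hspa5 was -0.22 to 0.68 in Lgr5-high and -0.20 to 0.70 in Lgr5-low cells, and that of Xbp1 was -0.32 to 0.53 and -0.24 to 0.59. These intervals are not adjusted for the number of genes and are no limit of detection. In Lgr5-high cells those of Sel1l (-1.43 to -0.24), Manf (0.14 to 0.92) and Herpud1 (-1.18 to -0.02) left out 0, yet none of these genes passed.

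The genes of lowest p in Lgr5-high cells were Sel1l, Manf and Herpud1. Sel1l, the adaptor of the ubiquitin ligase Syvn1, had 12.8 to 36 CPM (median 27.3) on control and 5.24 to 23.1 CPM (median 14.4) on cystine diet in these cells, and 9.39 to 36.5 CPM (median 27.5) and 8.90 to 39.1 CPM (median 27.4) in Lgr5-low cells. Its Lgr5-high cystine libraries were shifted low but overlapped the control libraries, with a difference of -0.84 ± 0.31 (edgeR adjusted p = 0.708). Manf, with the ranges given above, had a difference of 0.53 ± 0.20 (edgeR adjusted p = 0.786), the cystine libraries lying at the upper end of the control range or above it. Herpud1, a scaffold of the degradation complex and the gene with ERSE-II before its start, had 15.4 to 45.8 CPM (median 22.9) on control and 9.47 to 33.6 CPM (median 17.3) on cystine diet in Lgr5-high cells. These overlapped, with a difference of -0.60 ± 0.30 (edgeR adjusted p = 1). Macrophage markers were higher in this same comparison, 6 of 8 past the threshold with a median of 2.98, and their part in the values of the ER genes was not tested.

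In Lgr5-low cells the lowest p belonged to Edem2, a mannosidase of the degradation route, followed by Manf and Txndc5. Edem2 had 0.898 to 12.7 CPM (median 10.2) on control and 0.287 to 7.78 CPM (median 4.09) on cystine diet, overlapping, with a difference of -1.01 ± 0.56 (edgeR adjusted p = 1). Manf had 0.27 ± 0.20 and Txndc5 0.27 ± 0.20, both with an edgeR adjusted p of 1. The Txndc5 range on cystine diet was stretched upward by Lgr5-low libraries at up to 198 CPM.

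The difference of the diet effects, Lgr5-high minus Lgr5-low, passed for 0 of 35 genes by edgeR, DESeq2 or limma-voom. Of all tested genes 0% were higher and 0% lower by edgeR, 0 genes passed by DESeq2 and 6 by limma-voom. In the set 1 gene had an unadjusted p under 0.05 by edgeR. This was Txndc5, with -0.61 ± 0.29 (edgeR adjusted p = 1), followed by Sel1l with -0.85 ± 0.43 and Edem1 with -0.78 ± 0.61. The median over the 35 genes was -0.10 (-0.03 over all genes) with a median SE of 0.38. All diet comparisons and the population comparisons draw on the same 28 libraries.

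**Figure D4:**
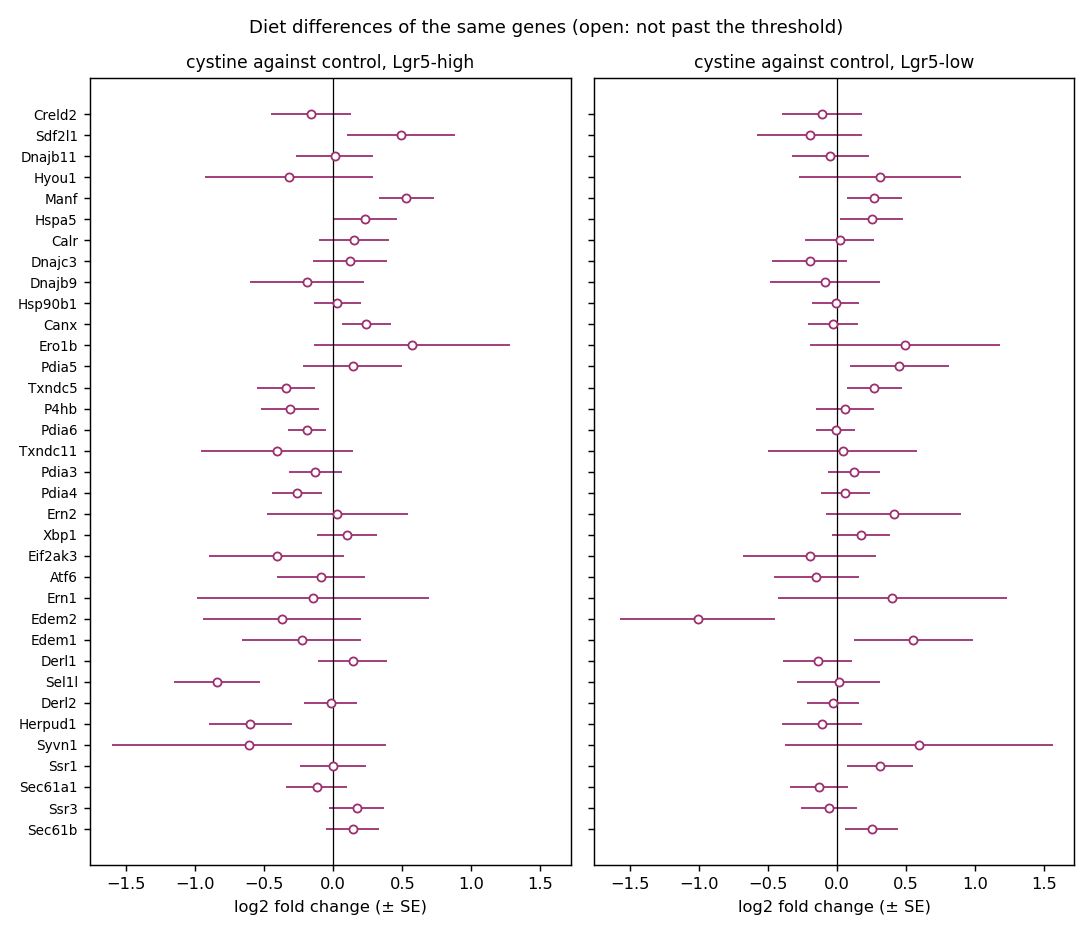
Log2 fold change (± SE) of the 35 tested ER genes, cystine against control diet, in Lgr5-high (left) and Lgr5-low cells (right), in the order of the population plot. All points are open, since none passed the threshold; the farthest in Lgr5-high cells is Sel1l at -0.84 and in Lgr5-low cells Edem2 at -1.01.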

How the data were processed

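Estimated counts, rounded to whole numbers, were deposited for each gene and library. Salmon 1.3.0 and the build mm10 are named in the submitters' processing notes, and how transcripts were annotated and added up to genes is not given in the sources used here. This program divides reads between like sequences, so genes with near-identical copies are less certain. Per the labels' protocols, libraries were poly(A)-selected and stranded.

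Tests used the quasi-likelihood method of edgeR 4.0.16 (R 4.3.3; TMM factors, filterByExpr, 1 mean per group over 28 libraries), with Benjamini-Hochberg adjustment over 12495 genes and a threshold of 0.05 in 6 contrasts. Every adjusted p comes from it unless a tool is named; p-values are two-sided. The common biological coefficient of variation was 0.629. DESeq2 1.42.0, limma-voom (limma 3.58.1), other size factors, filters, terms and left-out libraries were alternatives. DESeq2 was run without its independent filtering, and limma-voom with library quality weights and robust variance moderation. Intervals are 95% and, like the counting limit, do not cover differences in handling. Code was tested on simulated counts with the same spread for every gene and no Xist classes. That tests the code and does not bear on the calls in these data.

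The genes and lists were chosen with earlier results of these data known. Full values went to genes past the threshold in any contrast and to the 3 of lowest p in each role group (averaged comparison) and in each diet comparison; of each other list up to 4 of lowest p were named. Coordinates are GENCODE M21 (GRCm38); promoter sequences are RefSeq's (GRCm38.p6).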

Additional observations from a re-analysis of the deposited data

Results flagged for a closer look

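In each of the 4 groups the CPM of the 35 tested genes was searched for a library far from the other 6, by the gap to the nearest library as a share of the group's range (Dixon's 95% limit for 7 libraries). Of 140 groups of values 11 passed, where chance passes about 1 in 20. Lgr5-high control replicate 1, a library of 4.05 M counts, had the highest Hyou1 (7.09 CPM, next 3.05) and the highest Pdia3 (167 CPM, next 101) of its group. Lgr5-high cystine replicate 6, the shallowest library at 2.75 M counts, had the highest Hyou1 (6.63 CPM from 18 counts, next 2.62) and the highest Dnajb9 (11.8 CPM from 32 counts, next 6.19). Dnajc3 was highest in Lgr5-high cystine replicate 3 (53.1 CPM, next 33.1) and Herpud1 in Lgr5-high cystine replicate 1 (33.6 CPM, next 19.8). Manf stood out in Lgr5-low control replicate 1 (230 CPM, next 163), without which its call on control diet was lost, and Derl1 in Lgr5-low control replicate 2 (60.5 CPM, next 33.4). Syvn1 was highest in Lgr5-high control replicate 3 (5.48 CPM, next 2.32) and in Lgr5-low control replicate 6 (3.74 CPM, next 1.18). The lowest Sec61b was in Lgr5-high control replicate 5 (41.1 CPM, next 66.6).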

How the results depend on the processing

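The averaged count of 20 lower genes was 18 to 23 under DESeq2, limma-voom, other size factors, filters, the replicate block, an Xist class term and without libraries under 5 M counts, and 17 to 21 with 1 library left out (median -0.68 to -0.57). It was 0 with the goblet marker term (median -0.05) and 2 within the class with Xist below 50 CPM. The control diet count of 1 was 6 (DESeq2), 16 (limma-voom), 2 (at least 1 CPM in 7 libraries), 4 (replicate block), 10 (Xist class term), 0 (goblet term; median 0.01), and 11 and 0 within the Xist classes above and below 50 CPM; with 1 library left out it was 0 to 11 (3 without Lgr5-low control 2 or Lgr5-high control 6, and 2 without Lgr5-high control 1 or 4, Lgr5-low cystine 1, 5 or 7, or Lgr5-high cystine 3 or 6). The cystine diet count of 7 was 11 (limma-voom), 11 (Xist class term), 4 (without libraries under 5 M counts), 0 (goblet term; median -0.10), and 12 and 2 within the Xist classes above and below (median below -0.91); with 1 library left out it was 4 to 8, with 4 without Lgr5-high cystine replicate 7. The share of all tested genes that passed, in either direction, moved too. Averaged, it was 8.8% in the main fit, 5.5% without the low-count filter and 19% by limma-voom. On control diet it was 1.8%, against 3.3% with the replicate block and 3.6% with the Xist class term. On cystine diet it was 2.6%, against 7% by limma-voom, 5% with the Xist class term and 2% without libraries under 5 M counts. Whether the ER genes shifted more than all genes, and the cause of these shifts, was not tested. The diet and difference counts stayed at 0 in every setting run. With the goblet term 18 of the 35 averaged values were below 0, against 34 in the main fit. Among the genes given full values 11 turned positive, none past the threshold: Hspa5 0.35, Hsp90b1 0.01, Dnajb11 0.36, Dnajc3 0.05, Sdf2l1 0.14, Calr 0.34, Canx 0.22, P4hb 0.20, Ern2 0.21, Edem1 0.60 and Sec61a1 0.22. In Lgr5-low cells the diet value of Txndc5 was -0.06 within Xist above, and that of Manf -0.63 within Xist below. Of 1568 recomputed values of 40 gene results, 1448 kept direction and side of the threshold, 104 lost it, 3 gained it and 13 changed sign. Among the calls also lost were Dnajc3 and Ssr3 with relative log expression size factors, Ero1b, Derl1 and Sec61a1 within Xist above, and Ern2, and on cystine diet Pdia5, Pdia6 and Creld2, without libraries under 5 M counts. The Xist class split was chosen after seeing the data. After each gene's group mean was subtracted, same-numbered Lgr5-high and Lgr5-low libraries correlated at -0.09 to 0.25, over 0.1 in 7 of 14 pairs. Of these, 7 of 14 were closest to their own number, more than random matching among 7 libraries would give. Same-numbered libraries of each diet also fell in the same Xist class. The class was not subtracted before correlating, so that the closeness and the shared class are not independent. Pairs may therefore exist, but the labels do not state them, and the main fit left the libraries unpaired. The block gave 20 (averaged), 4 (control) and 10 (cystine diet) lower genes. Fits of the compared groups alone exist for the single-diet and single-population contrasts, and the block was not run for the diet contrasts. Low counts limit Ern1, Syvn1, Hyou1 and Ero1b.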
